A study of Rattus norvegicus with 9 samples.

Results

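The genes described here are 10 that set the pace of the G1 phase of the cell cycle: the D-type cyclins Ccnd1, Ccnd2 and Ccnd3 with their kinases Cdk4 and Cdk6, the E-type cyclins Ccne1 and Ccne2 with their kinase Cdk2, and the retinoblastoma-family proteins Rb1 and Rbl1. They were chosen by name, as the core of the G1 checkpoint, with earlier results of these data known. They are 10 of the 14217 genes that the array names, covered by 14 probe sets. Their expression was measured in rat retinal progenitor cells of 3 kinds, with 3 biological repeats and 1 array each, 9 arrays in all. The rESC-RPC2 and rESC-RPC1 samples were both differentiated from 1 line of rat embryonic stem cells (rESCs) of the DA strain and harvested on day 16. The rESC-RPC2 aggregates stayed in suspension and were dissociated for adherent culture on day 14. The rESC-RPC1 aggregates were dissociated for adherent culture on day 10 and were moved to N2 medium on day 14. The P-RPC samples were neural retina cells of Sprague-Dawley (SD) rats at postnatal day 1, dissociated with papain and not described as sorted. Strain (DA or SD) and growth in culture rather than in the animal change together with the cell type wherever P-RPC is compared, and the medium changes with the day of adherence between the rESC-RPCs, so that these cannot be told apart. In whole populations of cells, fewer cells of a type and less RNA per cell cannot be told apart either.

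D-type cyclins are made in response to mitogens and bind Cdk4 or Cdk6. The active kinases phosphorylate Rb1 and its relative Rbl1 (p107), which otherwise hold E2F transcription factors in check, and the released E2F factors switch on cyclin E and the genes of DNA replication. Cyclin E with Cdk2 then completes the phosphorylation of Rb1 and starts S phase. In the rodent retina, cyclin D1 is the main D-type cyclin of progenitor cells, and mice without it have small retinas.

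Sequence from the RefSeq promoter table (build GRCr8, 250 bases before to 50 bases after the start site that the table uses for a gene) was found for 6 of the 10 genes, namely Ccnd3, Cdk4, Ccne1, Cdk2, Rb1 and Rbl1. Each window was searched on both strands for 6 motifs. These were the E2F words TTTCCCGC, TTTCGCGC, TTTGCCGC and TTTGGCGC, the E-box CACGTG bound by Myc and related factors, the cell cycle homology region TTTGAA, the cAMP response element half-site TGACGT, the GC box GGGCGG and the TATA word TATAAA. The 3 windows below are shown because they hold the only E2F and E-box words among the 6 genes, with these words in capitals. The windows of Rbl1 and Rb1 set a gene that was lower in both rESC-RPCs beside its relative that did not pass the call, and Cdk4 is the kinase partner of the D-type cyclins.
Rbl1 promoter, chr3:166289327-166289626, minus strand: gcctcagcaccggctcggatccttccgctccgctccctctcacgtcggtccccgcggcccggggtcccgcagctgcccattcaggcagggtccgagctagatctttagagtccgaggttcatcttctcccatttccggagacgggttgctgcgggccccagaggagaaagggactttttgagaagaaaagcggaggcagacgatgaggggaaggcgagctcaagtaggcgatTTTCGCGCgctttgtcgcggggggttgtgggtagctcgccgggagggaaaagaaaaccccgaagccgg
Rb1 promoter, chr15:54911808-54912107, minus strand: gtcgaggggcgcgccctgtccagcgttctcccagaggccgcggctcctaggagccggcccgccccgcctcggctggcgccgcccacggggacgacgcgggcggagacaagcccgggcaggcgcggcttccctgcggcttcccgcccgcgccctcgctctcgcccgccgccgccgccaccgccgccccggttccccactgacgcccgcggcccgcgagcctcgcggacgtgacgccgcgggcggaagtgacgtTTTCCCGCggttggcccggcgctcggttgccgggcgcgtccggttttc
Cdk4 promoter, chr7:64771203-64771502, plus strand: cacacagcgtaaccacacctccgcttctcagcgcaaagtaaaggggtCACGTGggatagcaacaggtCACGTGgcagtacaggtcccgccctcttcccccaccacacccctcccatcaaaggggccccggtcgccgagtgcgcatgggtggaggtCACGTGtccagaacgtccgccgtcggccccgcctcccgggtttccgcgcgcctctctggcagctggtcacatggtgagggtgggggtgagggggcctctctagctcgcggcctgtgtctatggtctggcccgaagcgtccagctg
The E2F word of Rbl1 ended 11 bases before the start site that the table uses, and that of Rb1 began at base 3 after it. These start sites are not always the outer ends of the annotated genes. On the minus strand, Rbl1 begins at chr3:166289862 and Ccnd3 at chr9:20987199, so that the windows of both lie inside the annotated genes. The annotated Rb1 gene begins at chr15:54911989, within its window and ahead of the start site used. An E2F word stood in 2.14% of all 33469 promoter windows of the table. The Cdk4 window held 3 E-boxes, a number reached by 0.0568% of all windows, while 6.42% held at least 1. GC boxes were found in the windows of 5 of the 6 genes, all but Rbl1, and in 33.1% of all windows. The half-site TGACGT stood in the windows of Ccnd3, Cdk2 and Rb1 and in 7.94% of all windows. None of the 6 windows held TTTGAA or TATAAA, which stood in 18.3% and 14.2% of all windows. These matches describe the letters only.

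All values are MAS 5.0 signals, which put the brightness of a probe set on a linear scale after each array is scaled to a common level, and signals of different probe sets are not compared. The detection threshold was set at the median over all arrays, a signal of 123, and 9956 genes with at least 3 of 9 arrays at or above it were tested with limma. A gene was called higher or lower at a Benjamini-Hochberg adjusted p under 0.05, over all genes tested, together with a fold change of at least 2. Between 15095 and 15752 probe sets reached the threshold on an array. Of 9 retinal progenitor markers, 6 were detected in rESC-RPC2, 7 in rESC-RPC1 and 8 in P-RPC. Of the 8 tested, 6 were called lower and 0 higher in rESC-RPC2, and 4 lower and 1 higher in rESC-RPC1, relative to P-RPC. The progenitor genes Sox2 (means 6468, 9368 and 4936 in rESC-RPC2, rESC-RPC1 and P-RPC) and Nes (516, 630 and 306) were higher in both rESC-RPCs by adjusted p alone, and Nes was a call in rESC-RPC1. The eye field gene Pax6 had signals of 58.5 to 106 in rESC-RPC2, 67.4 to 204 in rESC-RPC1 and 13485 to 14227 in P-RPC. Six3, another eye field gene, was under the threshold on all 9 arrays. P-RPC replicate 1 stood apart in its lens genes, whose summed signal was 116847 there, 5248 and 1744 in the other P-RPC samples, and at most 307 in the rESC-RPCs. The counts of G1 genes called in the comparisons with P-RPC were the same without it. Photoreceptor markers (summed signal 18997 to 20874) and microglia markers (1854 to 2176) were detected in P-RPC alone, as was the red blood cell marker Hbb (13979 to 15135 with Alas2, at most 50.6 in the rESC-RPCs), while mesenchymal markers summed to 9151 to 16631 in rESC-RPC2, 17460 to 42774 in rESC-RPC1 and 685 to 757 in P-RPC. Neuron markers summed to 38886 to 43015 in rESC-RPC2, 14315 to 22200 in rESC-RPC1 and 17779 to 20457 in P-RPC, and 4 of 5 were called higher in rESC-RPC2 than in rESC-RPC1. Muller glia and astrocyte markers summed to 4467 to 5644 in rESC-RPC2, 8486 to 15189 in rESC-RPC1 and 10909 to 12097 in P-RPC, and 5 of 6 were called lower in rESC-RPC2 than in rESC-RPC1. Against P-RPC the glia markers went both ways. In rESC-RPC1, 3 of 6 were called higher and 1 lower, and in rESC-RPC2, 1 higher and 2 lower. Gfap had means of 979, 3689 and 59.1 in rESC-RPC2, rESC-RPC1 and P-RPC, and Rlbp1 had 3.11, 91.1 and 3459. The part of these markers in the results below was not tested.

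Among the G1 genes, cyclin D1, cyclin E2 and Rbl1 were lower in both rESC-RPCs than in P-RPC, while cyclin D2 was higher in both and cyclin D3 was higher in rESC-RPC1. The kinases Cdk4 and Cdk2, cyclin E1 and Rb1 were not called in any comparison, and Cdk6 was under the detection threshold on all 9 arrays. Of the 9 genes tested, 3 were called lower and 1 higher when rESC-RPC2 was set against P-RPC, where 13.0% of all genes tested were called lower and 10.7% higher. In rESC-RPC1 against P-RPC, 3 were called lower and 2 higher, beside 9.56% and 12.0% of all genes. Between rESC-RPC2 and rESC-RPC1, limma called 0 of the 9 genes, beside 14.3% of all genes. By adjusted p alone, 3 were lower and 0 higher in rESC-RPC2, beside 27.0% and 21.2% of all genes. The median log2 fold change of the 9 genes was -0.43 in rESC-RPC2 against P-RPC, -0.19 in rESC-RPC1 against P-RPC and -0.13 in rESC-RPC2 against rESC-RPC1, where all genes tested had medians of -0.02, -0.01 and -0.03.

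**Figure D1:**
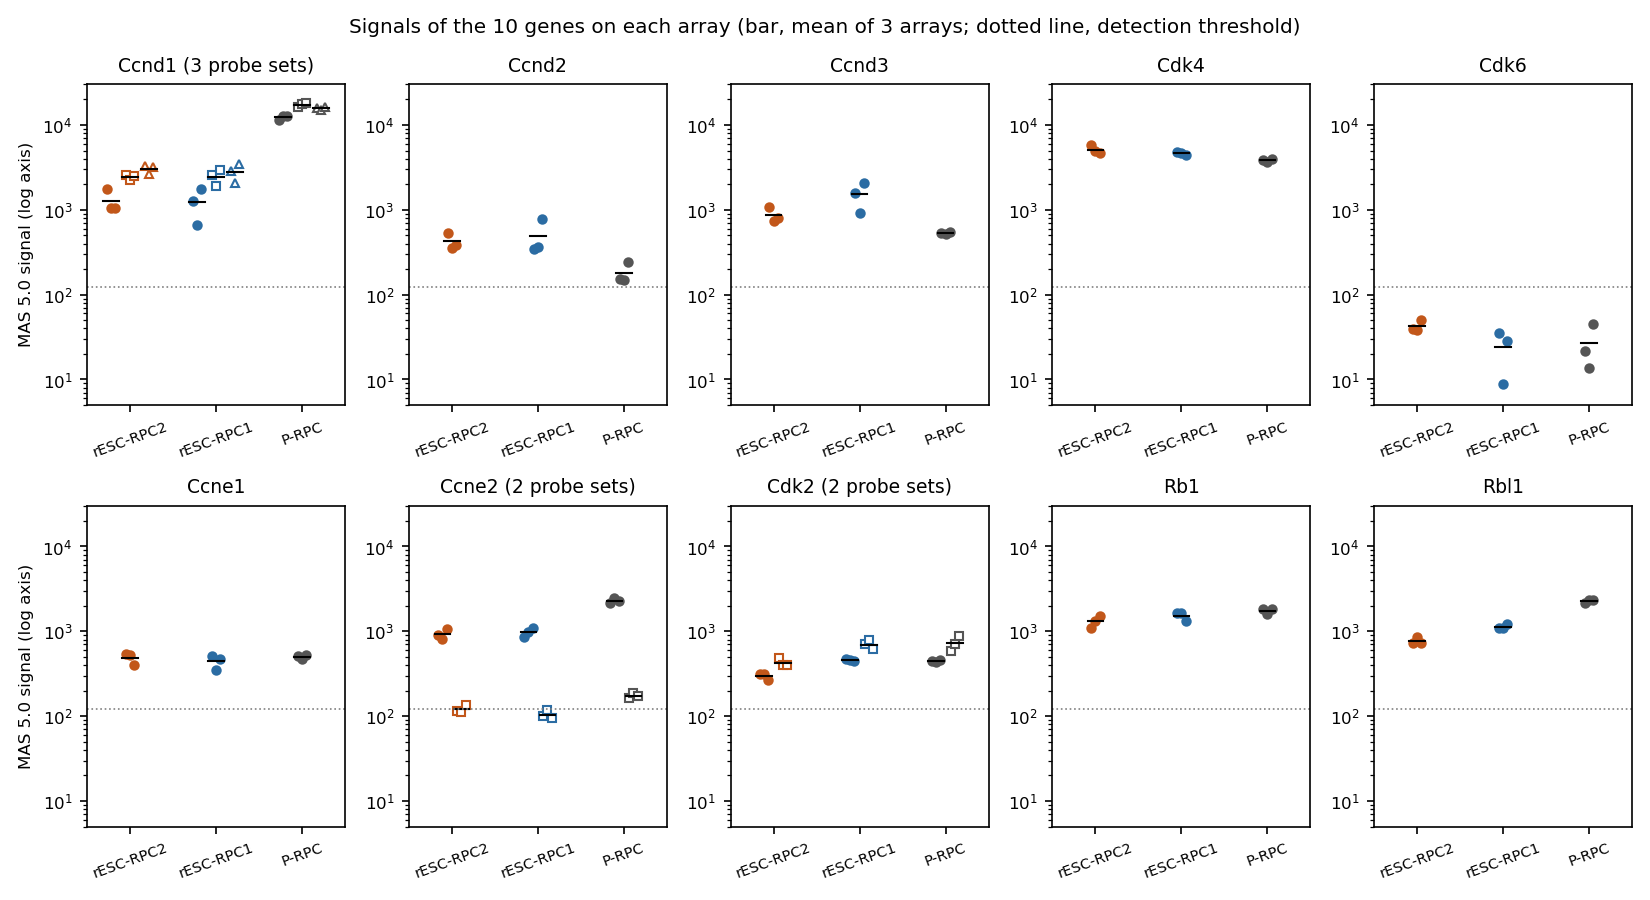
MAS 5.0 signals of the 14 probe sets of the 10 G1 genes on each of the 9 arrays (log axis, with rESC-RPC2, rESC-RPC1 and P-RPC from left to right). Filled circles, open squares and open triangles mark different probe sets of a gene, black bars the mean of 3 arrays and dotted lines the detection threshold of 123. All 3 Ccnd1 probe sets lie lower on the 6 rESC-RPC arrays than on the 3 P-RPC arrays, and the Cdk6 probe set stays under the threshold everywhere.

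Ccnd1 differed most among the G1 genes. The probe set used for the gene had signals of 3281, 2657 and 3185 in rESC-RPC2, 2898, 2095 and 3479 in rESC-RPC1, and 15928, 14888 and 16506 in P-RPC. Every rESC-RPC sample lay far under every P-RPC sample, and the rESC-RPC samples were mixed among each other. Cyclin D1 fell 5.20-fold in rESC-RPC2 (log2 fold change -2.38, SE 0.16, adjusted p = 6.72e-07) and 5.70-fold in rESC-RPC1 (log2 fold change -2.51, SE 0.16, adjusted p = 5.38e-07) relative to P-RPC. The other Ccnd1 probe sets, 1371150_at and 1371643_at, gave larger differences. Probe set 1371150_at had signals of 1742, 1042 and 1046 in rESC-RPC2, 1280, 669 and 1757 in rESC-RPC1, and 11549, 12864 and 12623 in P-RPC, 9.96-fold and 10.8-fold lower in rESC-RPC2 and rESC-RPC1. Probe set 1371643_at averaged 2448 ± 171 in rESC-RPC2, 2467 ± 513 in rESC-RPC1 and 17368 ± 849 in P-RPC (SD, n = 3 each), 7.10-fold and 7.14-fold lower. The direction was therefore shared by all 3 probe sets, and the size of the fold depended on the probe set. Between rESC-RPC2 and rESC-RPC1 the log2 fold change was 0.13, with a 95% interval from -0.22 to 0.48.

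Ccnd2, a cyclin D gene with a wide role in neural progenitors, went the other way. Its signals were 539, 358 and 387 in rESC-RPC2, 345, 369 and 775 in rESC-RPC1, and 152, 149 and 241 in P-RPC. All rESC-RPC samples lay above all P-RPC samples, while replicate 3 was the high one in both rESC-RPC1 and P-RPC. Cyclin D2 rose 2.39-fold in rESC-RPC2 (log2 fold change 1.26, SE 0.31, limma adjusted p = 0.00497) and 2.62-fold in rESC-RPC1 (log2 fold change 1.39, SE 0.31, adjusted p = 0.00299) relative to P-RPC. The log2 fold change between rESC-RPC2 and rESC-RPC1 was -0.13, and its 95% interval ran from -0.82 to 0.56, so that a difference of up to 1.77-fold in favour of rESC-RPC1 lies inside it.

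Ccnd3, the remaining D-type cyclin, had signals of 1083, 742 and 794 in rESC-RPC2, 1558, 919 and 2088 in rESC-RPC1, and 540, 515 and 548 in P-RPC. The P-RPC samples were the lowest and nearly equal, and the rESC-RPC1 samples spread the most. Cyclin D3 rose 2.70-fold in rESC-RPC1 relative to P-RPC (log2 fold change 1.43, SE 0.25, limma adjusted p = 0.000662). In rESC-RPC2 it was 1.61-fold above P-RPC (log2 fold change 0.69, adjusted p = 0.0341), under the fold of 2 needed for a call although the samples did not overlap. The difference between rESC-RPC2 and rESC-RPC1 had a log2 fold change of -0.74 (SE 0.25, adjusted p = 0.0321), and the samples overlapped. Without rESC-RPC1 replicate 2 the difference passed as a call (-1.07). With other single replicates left out it was as small as -0.47, with a limma adjusted p of up to 0.106.

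The D-type cyclins also differed in how much they varied among replicates. Within rESC-RPC1 the SD of the log2 signal was 0.37 for Ccnd1, 0.65 for Ccnd2 and 0.60 for Ccnd3, against a median of 0.18 over all 9956 genes. These SDs lay at percentiles 82.8, 94.8 and 93.8 of all genes in rESC-RPC1. In P-RPC, Ccnd2 again varied (SD 0.39, percentile 95.9), whereas Ccnd1 (0.076) and Ccnd3 (0.047) were under the median of 0.10. In rESC-RPC1 the order of the replicates from high to low was 3, 1 and 2 for Ccnd3 and for all 3 Ccnd1 probe sets, and the summed mesenchymal markers had the same order (42774, 28275 and 17460). For Ccnd2 it was 3, 2 and 1. In rESC-RPC2 the order was 1, 3 and 2 for Ccnd2, Ccnd3 and all 3 Ccnd1 probe sets, again that of the summed mesenchymal markers (16631, 12449 and 9151). Among these markers Col3a1 had another order in both rESC-RPCs (131, 177 and 164 in replicates 1 to 3 of rESC-RPC2, and 5229, 3756 and 3746 in those of rESC-RPC1). So had Dcn, and Lum in rESC-RPC1, both under the detection threshold on all rESC-RPC arrays. Unlike the sum, Dcn and Lum had higher means in P-RPC (40.8 and 105) than in rESC-RPC2 (25.7 and 6.68) or rESC-RPC1 (14.1 and 21.7). The orders of Ccnd1 and Ccnd3 were not particular to the mesenchymal markers. Mki67, described below, had the same orders (3061, 2792 and 3206 in replicates 1 to 3 of rESC-RPC1, and 2263, 1871 and 1940 in rESC-RPC2). So had the summed microglia markers, which were not detected in the rESC-RPCs (228, 164 and 255, and 247, 164 and 185). With 3 replicates a group no correlation was computed, and the part of the mesenchymal signal in these levels was not tested.

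**Figure D2:**
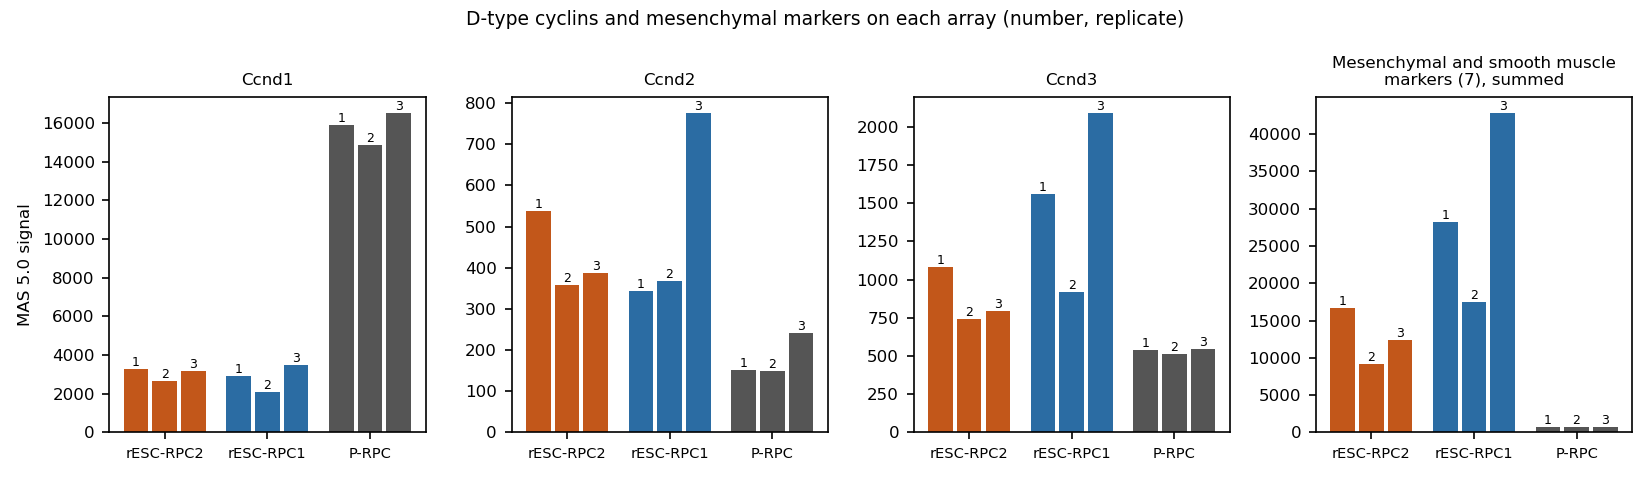
MAS 5.0 signals (linear axes from 0) of Ccnd1, Ccnd2 and Ccnd3 and of the summed signal of 7 mesenchymal and smooth muscle markers, 1 bar per array with the replicate number above it, in rESC-RPC2, rESC-RPC1 and P-RPC from left to right. Ccnd1 is high in the 3 P-RPC samples (14888 to 16506), whereas Ccnd2, Ccnd3 and the mesenchymal sum are low there.

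The kinases that pair with D-type cyclins showed smaller differences. Cdk4 had signals of 5869, 4882 and 4636 in rESC-RPC2, 4746, 4696 and 4464 in rESC-RPC1, and 3833, 3690 and 3970 in P-RPC. All rESC-RPC samples were above all P-RPC samples, by 1.33-fold in rESC-RPC2 (log2 fold change 0.41, SE 0.087, limma adjusted p = 0.00193) and 1.21-fold in rESC-RPC1 (log2 fold change 0.28, SE 0.087, adjusted p = 0.0193). Neither reached the fold of 2, and the upper ends of their 95% intervals, 1.52-fold and 1.38-fold, did not reach it either. Cdk6, the alternative partner kinase, had signals between 38.8 and 49.7 in rESC-RPC2, 8.84 and 35.4 in rESC-RPC1, and 13.7 and 45.5 in P-RPC. All of them were under the detection threshold, so that Cdk6 was not tested and no fold is given. It is represented by a single probe set, as are Ccnd2, Ccnd3, Cdk4, Ccne1, Rb1 and Rbl1.

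The E-type cyclins parted from each other. Ccne1 had signals of 538, 526 and 399 in rESC-RPC2, 515, 353 and 473 in rESC-RPC1, and 509, 477 and 520 in P-RPC. The samples of all 3 groups overlapped. Its log2 fold change was -0.05 in rESC-RPC2 against P-RPC (95% interval from -0.42 to 0.31) and -0.19 in rESC-RPC1 against P-RPC (95% interval from -0.55 to 0.17). Both intervals exclude a fold of 2.

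Ccne2, which acts with Cdk2 as Ccne1 does, had signals of 897, 818 and 1071 in rESC-RPC2, 855, 983 and 1102 in rESC-RPC1, and 2184, 2437 and 2292 in P-RPC. All rESC-RPC samples were lower than all P-RPC samples and overlapped each other. Cyclin E2 fell 2.49-fold in rESC-RPC2 (log2 fold change -1.32, SE 0.12, limma adjusted p = 7.52e-06) and 2.36-fold in rESC-RPC1 (log2 fold change -1.24, SE 0.12, adjusted p = 1.28e-05) relative to P-RPC. A dimmer Ccne2 probe set, 1391681_at, was also lower, with signals of 113, 111 and 134 in rESC-RPC2, 99.6, 117 and 93.9 in rESC-RPC1, and 165, 186 and 174 in P-RPC. It was near the detection threshold and was not called: the log2 fold change was -0.55 in rESC-RPC2 (adjusted p = 0.0215 over all probe sets), and since all 3 rESC-RPC1 samples were under the threshold, it was at least 1.43-fold lower there (adjusted p = 0.0042). Averaged over both probe sets, Ccne2 in rESC-RPC2 was at -0.93, not a call.

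Cdk2, the kinase of the E-type cyclins, separated rESC-RPC2 from the other groups. Its brighter probe set had signals of 483, 401 and 402 in rESC-RPC2, 701, 781 and 613 in rESC-RPC1, and 589, 701 and 876 in P-RPC. The rESC-RPC2 samples were the 3 lowest, and those of rESC-RPC1 and P-RPC overlapped. Cdk2 was 1.67-fold under P-RPC (log2 fold change -0.74, SE 0.16, limma adjusted p = 0.00197) and 1.63-fold under rESC-RPC1 (log2 fold change -0.70, SE 0.16, adjusted p = 0.00399) in rESC-RPC2, both short of the fold of 2. With the other probe set, 1378874_at, rESC-RPC2 was also the lowest group, with signals of 315, 311 and 268 in rESC-RPC2, 478, 456 and 450 in rESC-RPC1, and 450, 441 and 453 in P-RPC. Its log2 fold changes were -0.59 against P-RPC and -0.63 against rESC-RPC1. In rESC-RPC1 against P-RPC the Cdk2 log2 fold change was -0.04, with a 95% interval from -0.38 to 0.31.

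The retinoblastoma-family genes also differed. Rb1 had signals of 1092, 1319 and 1521 in rESC-RPC2, 1622, 1642 and 1315 in rESC-RPC1, and 1811, 1618 and 1838 in P-RPC. The rESC-RPC2 samples were lower than those of P-RPC, and the rESC-RPC1 samples overlapped both. The log2 fold change was -0.43 in rESC-RPC2 against P-RPC (SE 0.13, limma adjusted p = 0.0153) and -0.21 in rESC-RPC1 against P-RPC (95% interval from -0.50 to 0.087), and neither was a call.

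Rbl1 had signals of 727, 866 and 726 in rESC-RPC2, 1098, 1081 and 1208 in rESC-RPC1, and 2135, 2324 and 2324 in P-RPC. No sample of one group overlapped with another group, and the order was rESC-RPC2, rESC-RPC1 and P-RPC from low to high. Rbl1 fell 2.93-fold in rESC-RPC2 relative to P-RPC (log2 fold change -1.55, SE 0.097, limma adjusted p = 4.64e-07). In rESC-RPC1 it fell 2.004-fold (log2 fold change -1.003, SE 0.097, adjusted p = 1.07e-05), at the edge of a call, which was lost after centring each array on its median (-0.98) and without P-RPC replicate 2 or 3 or rESC-RPC1 replicate 1 or 2 (-0.97 to -0.98). Between rESC-RPC2 and rESC-RPC1 the log2 fold change was -0.55 (SE 0.097, adjusted p = 0.00101), not a call for its size. The Rbl1 window carries the E2F word TTTCGCGC, and that of Rb1 carries another, TTTCCCGC, which began after the start site used. The E2F factors themselves are described below.

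**Figure D3:**
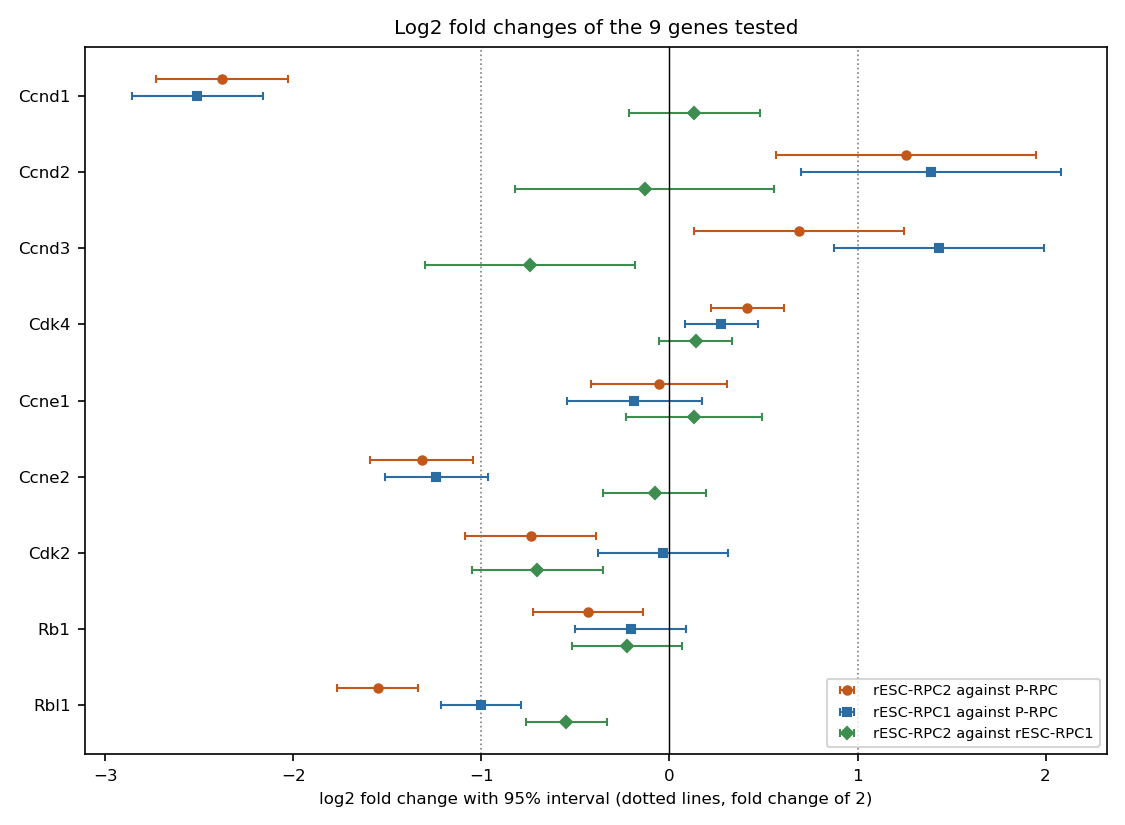
Log2 fold changes of the 9 G1 genes tested in rESC-RPC2 against P-RPC (circles), rESC-RPC1 against P-RPC (squares) and rESC-RPC2 against rESC-RPC1 (diamonds), with 95% intervals from limma and dotted lines at a fold of 2. The Ccnd1 points against P-RPC lie at -2.38 and -2.51, those of Ccnd2 at 1.26 and 1.39, and every diamond lies between the dotted lines.

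The comparisons with P-RPC share its 3 arrays, so each is given by its own values. Over the 13 probe sets tested, the samples did not overlap for 12 in rESC-RPC2 against P-RPC, where 70.8% of all probe sets tested did not overlap, and for 9 in rESC-RPC1 against P-RPC (64.4%). In rESC-RPC2 against rESC-RPC1 they did not overlap for 3 (51.2%), which were both Cdk2 probe sets and Rbl1. By adjusted p alone, 8 of the 9 genes passed in rESC-RPC2 against P-RPC, 5 lower and 3 higher, where 32.9% of all genes passed as lower and 30.3% as higher. In rESC-RPC1 against P-RPC, 3 were lower and 3 higher by adjusted p alone, beside 30.1% and 30.0% of all genes. Some of these did not pass with a single replicate left out. The highest limma adjusted p was then 0.127 for Ccnd3 and 0.0581 for Rb1 in rESC-RPC2, and 0.0707 for Cdk4 in rESC-RPC1. Between rESC-RPC2 and rESC-RPC1, Ccnd3, Cdk2 and Rbl1 passed by adjusted p alone, all lower in rESC-RPC2, beside 27.0% of all genes that passed as lower and 21.2% as higher. The shares of G1 genes that passed in these comparisons rest on 9 genes.

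Mki67, which encodes the Ki67 protein of cycling cells, had signals of 2263, 1871 and 1940 in rESC-RPC2, 3061, 2792 and 3206 in rESC-RPC1, and 6915, 6869 and 6922 in P-RPC. It fell in rESC-RPC2 (log2 fold change -1.77, SE 0.085, limma adjusted p = 9.11e-08) and in rESC-RPC1 (log2 fold change -1.19, SE 0.085, adjusted p = 1.31e-06) relative to P-RPC. Its samples had the same order of groups as Rbl1, with no overlap. The share of cycling cells was not measured on these arrays, and its part in the G1 gene levels was not tested.

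The genes whose log2 profile over the 9 arrays lay closest to a called G1 gene were found by the root mean square (RMS) difference after removing each gene's mean. Closest to Ccnd1 were Fancb, a gene of the Fanconi anaemia DNA repair complex (RMS 0.16), Hm13, a signal peptide peptidase (0.18), and Timeless, a replication fork protein (0.19). Closest to Ccnd2 were the endoplasmic reticulum chaperone gene Calr (0.17), Wwc3 (0.22) and the matrix proteoglycan gene Fmod (0.23). Ccnd3 was matched by Fst, the activin antagonist follistatin (0.066), by the RNA-binding protein gene Hdlbp (0.10) and by the collagen-modifying enzyme gene Colgalt1 (0.16). Ccne2 was matched by Hirip3 (0.096), by Pola1, the catalytic subunit of DNA polymerase alpha (0.11), and by Zfp367 (0.13). Rbl1 was matched by Mettl5 (0.099), Wdhd1 (0.11) and Smim3 (0.11). Among the G1 genes themselves, the profiles of Ccne2 and Rbl1 were the closest pair (0.25).

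Around the G1 genes, 6 lists of pathway genes were followed. The first holds E2F, DP and MuvB genes together with Rbl2, and is called the E2F partner list here. Of its 14 genes tested, 5 were lower in rESC-RPC2 and 3 in rESC-RPC1 relative to P-RPC, and 0 were higher. Over all genes tested, 13.0% were called lower and 10.7% higher in rESC-RPC2 against P-RPC, and 9.56% and 12.0% in rESC-RPC1 against P-RPC, the shares beside which each count on these lists stands. The list median was -0.63 and -0.40 on the log2 scale, against -0.02 and -0.01 for all genes. E2f1, an activator E2F, had signals of 283, 354 and 209 in rESC-RPC2, 297, 201 and 262 in rESC-RPC1, and 851, 1122 and 1166 in P-RPC, with a log2 fold change of -1.91 in rESC-RPC2 and -2.05 in rESC-RPC1. Tfdp2, a DP partner of E2F, fell as well (log2 fold change -2.42 in rESC-RPC2 and -1.95 in rESC-RPC1), as did the repressor gene E2f8 (-1.72 and -1.34). E2f7, a related repressor, had signals of 246, 275 and 252 in rESC-RPC2, 501, 508 and 454 in rESC-RPC1, and 649, 684 and 697 in P-RPC. It was called in rESC-RPC2 (log2 fold change -1.39, limma adjusted p = 1.41e-06) but not in rESC-RPC1 (-0.47, adjusted p = 0.00241). The difference between rESC-RPC2 and rESC-RPC1 was -0.92 (adjusted p = 5.49e-05), just short of a fold of 2.

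Of 18 S phase genes tested that are textbook E2F targets, 4 were lower in each of rESC-RPC2 and rESC-RPC1 relative to P-RPC, with 0 higher, beside 13.0% and 9.56% of all genes called lower. The list medians were -0.67 in both comparisons, and by adjusted p alone 13 and 14 were lower, beside 32.9% and 30.1% of all genes. Uhrf1, a maintenance factor of DNA methylation, had signals of 483, 372 and 375 in rESC-RPC2, 418, 338 and 384 in rESC-RPC1, and 1913, 2206 and 1579 in P-RPC, and its log2 fold change was -2.21 for rESC-RPC2 and -2.31 for rESC-RPC1. The helicase subunit gene Mcm7 (-1.15 and -1.06) and Pola1 (-1.09 and -1.16) fell in both. Mcm2, of the same helicase, fell in rESC-RPC2 (-1.04) and was at -0.79 in rESC-RPC1, not a call. With single replicates left out, the number called lower in rESC-RPC2 ranged from 2 to 6. It was 2 without rESC-RPC2 replicate 2, where Pola1 (-0.99) and Mcm2 (-0.98) were lost, and 6 without rESC-RPC2 replicate 1. Mcm2 was also lost without rESC-RPC2 replicate 3 (-0.99) or P-RPC replicate 3 (-0.9998) and after median centring (-0.96).

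The later cyclins and their kinase, which drive S phase and mitosis, numbered 6, of which 3 were lower in rESC-RPC2 and 2 in rESC-RPC1 relative to P-RPC, beside 13.0% and 9.56% of all genes, and all 6 were lower in both by adjusted p alone, beside 32.9% and 30.1%. Ccnb2, a mitotic cyclin, had signals of 1938, 1628 and 1515 in rESC-RPC2, 3210, 2862 and 3140 in rESC-RPC1, and 6140, 5782 and 5873 in P-RPC, with no overlap. On the log2 scale its fold change was -1.82 in rESC-RPC2, a call, and -0.95 in rESC-RPC1, not a call. Ccnb1 was likewise called in rESC-RPC2 (-1.17) and not in rESC-RPC1 (-0.81), whereas Ccna2, cyclin A of S phase, was called in rESC-RPC1 (-1.03) and not in rESC-RPC2 (-0.86). Ccna1, a cyclin A best known from the testis, was dim. In rESC-RPC2 it was lower by at least 1.92-fold, since all samples were under the detection threshold (25.3, 69.6 and 30.0, against 208, 264 and 238 in P-RPC), and with signals raised to the threshold it was not a call in rESC-RPC2 (log2 fold change -0.94) or in rESC-RPC1 (-0.75). Its call in rESC-RPC1 (log2 fold change -1.44, limma adjusted p = 0.0276) was lost without rESC-RPC1 replicate 1 (adjusted p = 0.0828) or replicate 3 (adjusted p = 0.0908), and without any one of the P-RPC samples. The call of Ccna2 in rESC-RPC1 was lost without rESC-RPC1 replicate 1 (-0.997) or replicate 2 (-0.91).

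The CDK inhibitors, which brake the G1 kinases, moved in both directions. Of 5 tested, 3 were lower in rESC-RPC2 than in P-RPC with 0 higher, and 3 were lower and 1 higher in rESC-RPC1. Cdkn1c (p57), an inhibitor of cyclin-CDK complexes, had signals of 704, 607 and 679 in rESC-RPC2, 2238, 1446 and 1527 in rESC-RPC1, and 4912, 4043 and 4217 in P-RPC, without overlap. It fell in both (log2 fold change -2.72 in rESC-RPC2 and -1.36 in rESC-RPC1), and it was also lower in rESC-RPC2 than in rESC-RPC1 (log2 fold change -1.36, limma adjusted p = 6.28e-05). Cdkn2c (p18), an inhibitor of Cdk4 and Cdk6, fell too (-1.83 and -1.09), calls that were lost when its probe sets were averaged (-0.86 and -0.50). Cdkn1b (p27), a cell cycle exit factor of the retina, fell in both (-1.35 and -1.10), though its call in rESC-RPC1 was lost without rESC-RPC1 replicate 3 (-0.98). Cdkn1a (p21), a p53 target, went against them, with signals of 684, 537 and 609 in rESC-RPC2, 997, 880 and 2233 in rESC-RPC1, and 403, 432 and 439 in P-RPC. It rose in rESC-RPC1 (log2 fold change 1.56), was not called in rESC-RPC2 (0.52, adjusted p = 0.133), and the call between rESC-RPC2 and rESC-RPC1 (-1.04, adjusted p = 0.0113) was lost without rESC-RPC1 replicate 3 (-0.63) or rESC-RPC2 replicate 2 (-0.96). Cdkn2a and Cdkn2b were not tested, for low signal.

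Of 13 genes of CDK activation and cyclin turnover, 1 was lower and 0 higher in rESC-RPC2, and 1 was lower and 1 higher in rESC-RPC1, relative to P-RPC. The lower one was Fbxw7, which marks cyclin E for destruction. It had signals of 803, 810 and 820 in rESC-RPC2, 680, 693 and 659 in rESC-RPC1, and 2526, 2398 and 2566 in P-RPC, with log2 fold changes of -1.62 for rESC-RPC2 and -1.88 for rESC-RPC1. Fbxo4, a ubiquitin ligase subunit reported to act on cyclin D1, was the higher one, at least 2.19-fold in rESC-RPC1 (247, 233 and 338, against 87.2, 76.8 and 93.9 in P-RPC, all of which were under the detection threshold).

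Of 9 genes of mitogenic pathways known to feed the D-type cyclins, 6 were lower and 1 higher in rESC-RPC2, and 4 lower and 2 higher in rESC-RPC1, relative to P-RPC. Gli1 and Gli2, transcription factors of Hedgehog signalling, were under the detection threshold on all rESC-RPC2 arrays. Gli1 had signals of 8.04, 8.37 and 9.18 in rESC-RPC2, 140, 310 and 141 in rESC-RPC1, and 803, 865 and 927 in P-RPC, a drop of at least 7.05-fold for rESC-RPC2 and a log2 fold change of -2.24 for rESC-RPC1. For Gli2 the drop was at least 5.08-fold in rESC-RPC2. In rESC-RPC1, where 1 of 3 samples reached the threshold, Gli2 was called lower with signals of 99.2, 138 and 109, against 583, 626 and 661 in P-RPC, and no fold is given. The receptor gene Notch1 had signals of 1018, 1077 and 942 in rESC-RPC2, 2399, 2280 and 1861 in rESC-RPC1, and 4105, 4086 and 4390 in P-RPC. It fell in rESC-RPC2 (-2.05) and was not called in rESC-RPC1 (-0.95), which became a call without rESC-RPC1 replicate 1 (-1.03). Its target Hes1 fell in rESC-RPC2 (-1.38) and was not called in rESC-RPC1 (-0.45). Myc, a transcription factor that binds E-boxes such as those of the Cdk4 window, went against most, with signals of 603, 517 and 493 in rESC-RPC2, 535, 270 and 447 in rESC-RPC1, and 180, 142 and 159 in P-RPC. It rose in rESC-RPC2 (log2 fold change 1.74, limma adjusted p = 7.3e-05) and in rESC-RPC1 (1.33, adjusted p = 0.000518). Mycn, a related gene of the same list, was called lower in both (log2 fold change -1.70 in rESC-RPC2 and -1.56 in rESC-RPC1). A link of either gene to Cdk4 was not tested. The receptor gene Fgfr1 rose in rESC-RPC1 (1.60) and was not called in rESC-RPC2 (0.32, adjusted p = 0.0693).

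**Figure D4:**
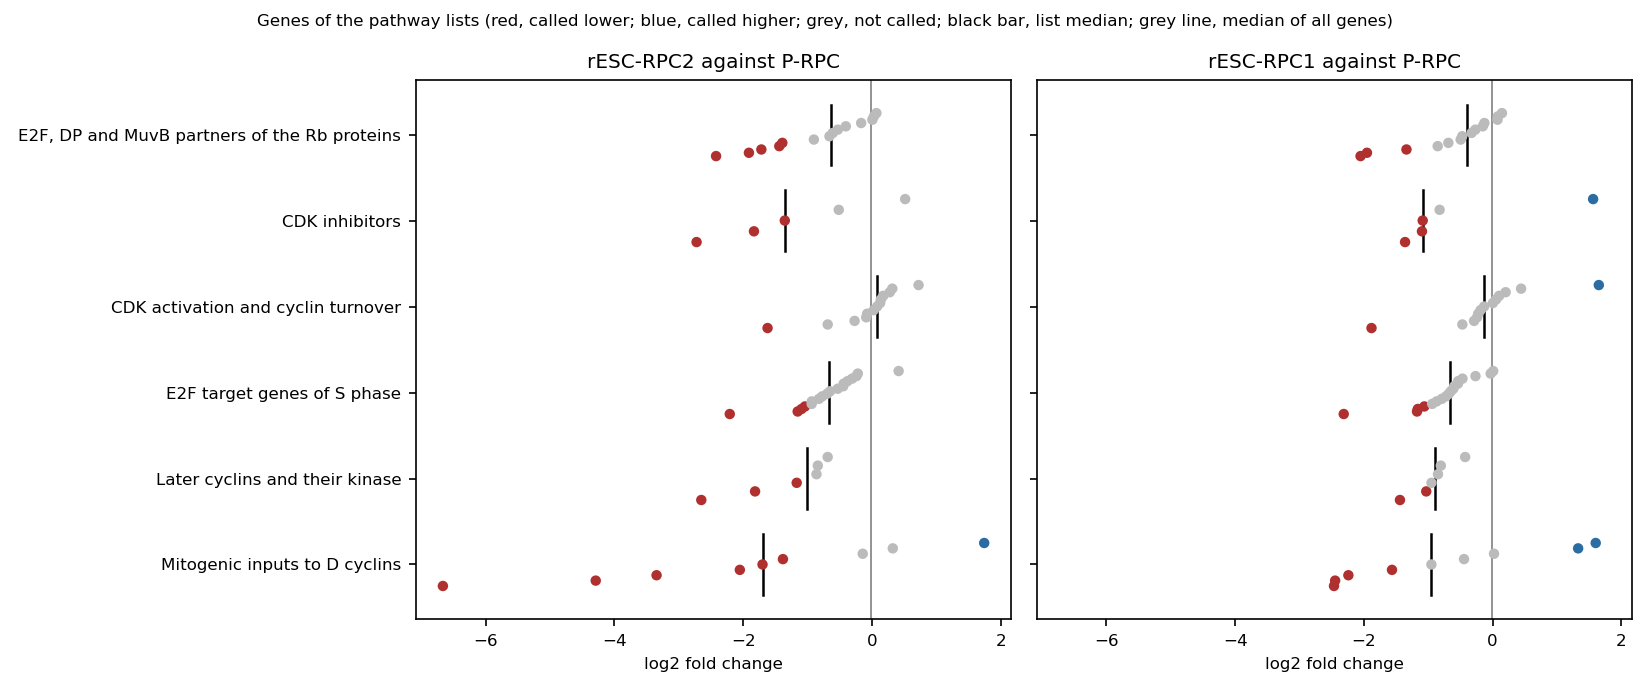
Log2 fold changes of the genes tested on 6 pathway lists in rESC-RPC2 against P-RPC (left) and rESC-RPC1 against P-RPC (right); each point is a gene, red for called lower, blue for called higher and grey for not called, with black bars at list medians and grey lines at the median of all genes. E2F partners and S phase targets have called genes on the lower side only, while the CDK inhibitors and mitogenic inputs have called genes on both sides in rESC-RPC1. Points of genes under the detection threshold in a whole group, such as Gli1 at -6.66, are fitted values and not bounds.

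Directly between rESC-RPC2 and rESC-RPC1, 0 genes were called on the E2F partner, S phase, later cyclin and turnover lists. On the CDK inhibitor list, 2 of 5 were lower in rESC-RPC2, namely Cdkn1c and Cdkn1a, and on the mitogenic list 4 of 9 were lower, namely Gli1, Gli2, Notch1 and Fgfr1, beside 9.25% of all genes called lower. With signals raised to the detection threshold, Gli1 (log2 fold change -0.58, limma adjusted p = 0.0991) and Gli2 (-0.055, adjusted p = 0.68) were not called, which leaves 2 of the 9. Gli1 was at least 1.49-fold lower as a bound, and for Gli2 the rESC-RPC1 samples were themselves near the threshold. With single replicates left out, Ccna1 was called lower without rESC-RPC1 replicate 3 (adjusted p = 0.0164) or rESC-RPC2 replicate 2 (adjusted p = 0.0222), with all rESC-RPC2 samples under the threshold, and Fbxo4 without rESC-RPC1 replicate 2 (log2 fold change -1.03). By limma adjusted p alone, the E2F partner list had 6 genes lower and 1 higher, and the later cyclin list 3 and 0. The S phase list had 0 lower and 1 higher, and the turnover list 2 and 3, beside 27.0% and 21.2% of all genes. E2f7, Ccnb2 and Rbl2, another retinoblastoma-family gene, were among the lower ones, with log2 fold changes of -0.92, -0.86 and -0.74.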

How the data were processed

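Total RNA of 9 samples was hybridized to Affymetrix Rat Genome 230 2.0 arrays, 3 each for rESC-RPC2, rESC-RPC1 and P-RPC, and groups were taken from the sample labels. The authors deposited linear intensities, computed with MAS 5.0 (MAS5, version not given in the sources used here) and scaled per array, with a 2% trimmed mean of 500.2 on every array. No array dates are given. From the deposited signals, log2 values were computed with a floor of 1 and no rescaling. Of 31099 probe sets, 57 controls were left out, 20826 of the rest carry 1 gene symbol, 436 several and 9780 none. Probe sets entered the test if 3 or more arrays reached a signal of 123, the overall median, and the one of highest mean stood for its gene. limma 3.58.1 in R 4.3.3 (lmFit, eBayes with a trend) fitted 1 mean per group over all 9 arrays, and the code was tested on simulated data. Where all arrays of a group were under the threshold, a fold is a lower bound computed from it. Errors are SDs over 3 samples or limma's standard errors, and the number of arrays limits the precision. Replicate numbers were checked for pairing and treated as unpaired (r of deviations from -0.04 to 0.27, over 0.1 for 1 of 9 pairs).

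The members and pathway lists were chosen with earlier results of these data known. Besides all 10 members and Mki67, the text names, per pathway list, up to 4 called genes of smallest adjusted p against P-RPC and any called gene going against most, and the 3 genes nearest in profile to each called member. Rbl2 and Mycn were named after their values were seen. Alternatives covered scaling, filters, low values, probe set choice, the variance model, the arrays fitted, a replicate block, single replicates left out and the fold threshold.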

Additional observations from a re-analysis of the deposited data

Results flagged for a closer look

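For 3 of the 9 genes tested, the fold change against P-RPC differed between the rESC-RPCs by limma's test of the difference itself, and in each the fold in rESC-RPC2 was the lower one. Of all genes tested, 27.0% were lower and 21.2% higher by the same test, and the share of G1 genes rests on 9 genes. For Ccnd3 the log2 fold change in rESC-RPC2 minus that in rESC-RPC1 was -0.74 (adjusted p = 0.0321), with mean signals of 873 ± 183 in rESC-RPC2 and 1522 ± 585 in rESC-RPC1 (SD, n = 3 each). For Cdk2 it was -0.70 (adjusted p = 0.00399), with 429 ± 47.2 in rESC-RPC2 and 699 ± 83.9 in rESC-RPC1. For Rbl1 it was -0.55 (adjusted p = 0.00101), with 773 ± 80.8 in rESC-RPC2 and 1129 ± 69.1 in rESC-RPC1. The rESC-RPC2 and rESC-RPC1 samples overlapped for Ccnd3 but not for Cdk2 or Rbl1, and the Cdk2 difference was seen with both of its probe sets. With single replicates left out, the highest adjusted p was 0.106 for Ccnd3 (log2 difference from -1.07 to -0.47), 0.0191 for Cdk2 (-0.79 to -0.62) and 0.00618 for Rbl1 (-0.63 to -0.50), so that the Ccnd3 difference did not pass without rESC-RPC1 replicate 1 or 3 or rESC-RPC2 replicate 2 or 3. The medium and the day of adherence cannot be told apart here.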

How the results depend on the processing

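Of 459 log2 fold changes of the G1 genes recomputed under an alternative, 440 kept their direction and their side of the threshold. The filters, testing all probe sets, the variance model, fitting only the groups compared and the replicate block leave these log2 fold changes as they were. Under these alternatives only the adjusted p could move a value across the threshold, and no direction could turn. The count of genes could still change where every probe set of a gene had to be called. It was then 2 lower in rESC-RPC1 against P-RPC, Ccnd1 and Rbl1. Ccne2 was lost, since its probe set 1391681_at was not called in either comparison with P-RPC. With no fold threshold, 5 G1 genes were lower and 3 higher in rESC-RPC2 against P-RPC, beside 32.9% and 30.3% of all genes. In rESC-RPC2 against rESC-RPC1, 3 were lower, beside 27.0% of all genes. Leaving out single replicates gave 2 to 3 genes lower in rESC-RPC1 against P-RPC and 0 to 1 lower in rESC-RPC2 against rESC-RPC1, the 1 being Ccnd3 without rESC-RPC1 replicate 2 (-1.07). Rbl1 in rESC-RPC1 against P-RPC was under a fold of 2 after median centring (-0.98), with log2(signal + 50) (-0.97), and without P-RPC replicate 2 or 3 or rESC-RPC1 replicate 1 or 2 (-0.97 to -0.98). Ccne2 in rESC-RPC2 against P-RPC was at -0.93 with the mean over probe sets. With the replicate number as a block, an analysis of pairing, the counts were 3 lower and 1 higher in rESC-RPC2 against P-RPC, 3 lower and 2 higher in rESC-RPC1 against P-RPC, and 0 between the rESC-RPCs, and no call of a G1 gene changed.

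Signs turned only for uncalled values near 0. With single replicates left out, Cdk2 in rESC-RPC1 against P-RPC ranged from -0.17 to 0.11 and Ccne1 in rESC-RPC2 against P-RPC from -0.13 to 0.084. In rESC-RPC2 against rESC-RPC1 the ranges were -0.068 to 0.30 for Ccnd1, -0.34 to 0.24 for Ccnd2, -0.030 to 0.27 for Ccne1, -0.19 to 0.0095 for Ccne2, -0.039 to 0.34 for E2f1, -0.019 to 0.18 for Uhrf1 and -0.041 to 0.17 for Pola1. The mean over probe sets gave 0.0032 for Cdk2 in rESC-RPC1 against P-RPC and 0.067 for Ccne2 in rESC-RPC2 against rESC-RPC1, and median centring gave 0.027 for Ccne1 in rESC-RPC2 against P-RPC. Of 1269 such values of list genes and Mki67, counted over the same alternatives, 33 changed direction or their side of the threshold. Causes were not tested. Signals under the threshold limit Cdk6, Gli1, Gli2 and Ccna1.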
